A study of Mus musculus with 12 samples.

Results

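The blood vessels of the hippocampus were followed here through 10 marker genes of endothelial cells and pericytes, namely Cldn5, Slc2a1, Abcb1a, Pecam1, Flt1, Kdr, Tek, Pdgfrb, Rgs5 and Vtn. A gene was included when its symbol stood alone in the platform annotation of a transcript cluster, which is a set of probes along 1 transcript. Each of the 10 genes had 1 such cluster, so they made up 10 of the 21789 single-gene clusters on the array. RNA came from macrodissected whole hippocampus of 6 Madison (MSN) mice and 6 hsd:ICR (ICR) mice, with 1 Affymetrix Mouse Gene 1.0 ST array per mouse. MSN is an inbred strain with a manic phenotype that descends from ICR, the outbred stock used as control, by way of ancestors selected for wheel running and then for maternal defense. All were adult males of about 10 weeks that lived singly in the same room and were killed under isoflurane a day after their activity had been recorded; no drug treatment or transgene is described for them. MSN is 1 line, so what selection and what drift fixed in it cannot be told apart here.

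Endothelial cells line the vessels, and in the brain they are sealed by tight junctions and studded with transporters that together form the blood-brain barrier. Pericytes sit on the outside of capillaries, and endothelial PDGF-B holds them there through the receptor Pdgfrb. VEGF and angiopoietin acting on Flt1, Kdr and Tek govern growth and quiescence of the endothelium, while Wnt ligands from neurons and glia instruct it to build the barrier. In whole tissue, fewer vascular cells and less RNA per vascular cell cannot be told apart.

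None of the 10 vascular markers passed the test between MSN and ICR hippocampus. limma with Benjamini-Hochberg adjustment over 23410 clusters called 0 of 10 at an adjusted p under 0.05, and 0 of 10 had an unadjusted p under 0.05, against 0.777% (0.303% higher and 0.474% lower in MSN) and 12.7% of all clusters tested. The estimates were small, from -0.045 for Tek to 0.16 for Cldn5 on the log2 scale, and 8 of 10 lay above 0 (45.5% of all clusters did). Their median was 0.045, and that of all clusters was -0.0079. The markers moved together from mouse to mouse, as given below, so their signs are not 10 separate results. With 1 mouse left out at a time, Pecam1 and Vtn, which lay above 0 with all mice, fell to -0.0012 and -0.018 at the lowest. Tek and Slc2a1, which lay below 0 with all mice, fell to -0.082 and -0.035. Every log2 difference here is MSN minus ICR of log2(intensity + 16), which understates the change of dim genes, and intensities are the linear values deposited for each array. The 95% intervals from limma reached from -0.17, the lower bound for Tek, to 0.38, the upper bound for Cldn5. On simulated data for this comparison a log2 change of 0.25 was recovered in 58% of 100 changed clusters and a change of 0.5 in 94% of 50, so small differences could have been missed. The changed clusters were drawn at random from all clusters tested, and recovery was not simulated for the markers. Their spread within strains ran from more than that of 16.8% of genes for Pdgfrb to more than that of 96.2% for Cldn5. None of the 10 genes separated the strains without overlap, which 1.44% of all clusters did.

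The hippocampal label was checked first. All 9 neuronal markers of the hippocampus that were looked for were measured, and the lowest value of any of them in any mouse was 483, for Fibcd1, a gene of CA1. The lowest value of any vascular marker in any mouse was 218, for Kdr. Array medians ranged from 270 to 298, and arrays of the same strain correlated at 0.988 to 0.995 and arrays of different strains at 0.988 to 0.993. The sources used here name no scan date and no batch.

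The upstream bases of 4 genes named in the results below are shown, and no result here rests on those bases. Tek and Abcb1a were the pair of markers that tracked each other most closely from mouse to mouse, Slc2a1 tracked no other marker closely, and Emcn, a further endothelial gene, was the vascular gene that passed the test in the model with strain alone. Each run is the 250 bases before the RefSeq start of the gene on its own strand, the plus strand of GRCm38.p6 for all of them, at chr4:94739039-94739288 for Tek, chr5:8566841-8567090 for Abcb1a, chr4:119108495-119108744 for Slc2a1 and chr3:137340828-137341077 for Emcn. Capitals mark AGGAAG, a sequence bound by ETS factors, on either strand.
Tek: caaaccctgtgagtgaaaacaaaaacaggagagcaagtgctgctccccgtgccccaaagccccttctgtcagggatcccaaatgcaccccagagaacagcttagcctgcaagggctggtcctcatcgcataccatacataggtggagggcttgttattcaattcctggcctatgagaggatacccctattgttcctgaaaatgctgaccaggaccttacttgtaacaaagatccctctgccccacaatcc
Abcb1a: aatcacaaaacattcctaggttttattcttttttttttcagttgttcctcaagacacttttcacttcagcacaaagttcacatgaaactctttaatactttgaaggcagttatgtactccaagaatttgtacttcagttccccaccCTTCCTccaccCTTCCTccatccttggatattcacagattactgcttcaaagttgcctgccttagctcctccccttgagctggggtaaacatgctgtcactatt
Slc2a1: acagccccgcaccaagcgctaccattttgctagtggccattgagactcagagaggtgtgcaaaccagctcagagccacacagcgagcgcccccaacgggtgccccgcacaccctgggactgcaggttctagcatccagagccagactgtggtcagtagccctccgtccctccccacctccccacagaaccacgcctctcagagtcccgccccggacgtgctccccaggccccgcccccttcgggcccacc
Emcn: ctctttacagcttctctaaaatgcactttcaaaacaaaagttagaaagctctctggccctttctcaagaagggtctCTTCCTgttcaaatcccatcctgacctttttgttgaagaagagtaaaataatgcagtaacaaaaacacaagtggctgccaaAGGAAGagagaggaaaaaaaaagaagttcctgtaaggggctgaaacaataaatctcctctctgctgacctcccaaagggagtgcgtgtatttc
RefSeq promoters were found for 8 of the 10 markers, and 2 of these 8, Flt1 and Abcb1a, held AGGAAG within 250 bases, as did 29.5% of 32851 promoters of the same length. The GC box GGGCGG was found in 4 of 8 and in 32.7% of all, and TATAAA in 2 of 8 and in 12.4% of all, each on either strand. AGGAAG can share its end base with either of the others. Tek held none of the 3 motifs and Abcb1a held AGGAAG alone, at 2 positions, and Emcn held AGGAAG at 2 positions. These are matches of letters only.

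The barrier genes came first among the markers. Cldn5 encodes claudin-5, the main tight junction protein of brain endothelium, and its intensity in MSN mice was 846 at the lowest, 970 at the median and 1397 at the highest. In ICR mice the same figures were 814, 905 and 1008. MSN replicates 3 and 5 exceeded every ICR mouse, and the other 4 lay among them. The log2 difference was 0.16 (standard error 0.101, adjusted p = 0.540 from limma, two-sided exact permutation p = 0.195). It rested in part on 1 mouse, being 0.074 without MSN replicate 3.

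Slc2a1, the glucose transporter GLUT1 of the barrier, was nearly level. MSN mice ranged from 3055 through a median of 3320 to 3592, and ICR mice from 3224 through 3386 to 3476. The highest and the lowest mouse were both MSN. Its log2 difference was -0.013 (95% interval -0.10 to 0.074), and the sign turned, to 0.013 with all arrays brought to 1 common median and to 0.011 without MSN replicate 2.

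Abcb1a, which encodes the drug efflux pump P-glycoprotein, ranged from 498 through 553 to 583 in MSN mice and from 476 through 523 to 568 in ICR mice. The upper 3 MSN mice lay above every ICR mouse and the lower 3 among them, with a log2 difference of 0.050 (adjusted p = 0.755 from limma). Its close paralog Abcb1b has a cluster of its own, and how far RNA of one gene binds the other's probes was not tested. Abcb1b read 161, 179 and 215 at the lowest, median and highest MSN mouse and 86.3, 151 and 215 in ICR mice, so that all 6 MSN mice lay above the ICR median but within the ICR range. Its log2 difference was 0.34 (standard error 0.152, adjusted p = 0.366 from limma).

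The endothelial receptors and the adhesion molecule Pecam1 overlapped as well. Flt1, the VEGF receptor that acts largely as a decoy, had the lowest P-value of the 10 markers. It read 728, 813 and 945 at the lowest, median and highest MSN mouse against 703, 744 and 827 in ICR mice, and again replicates 3 and 5 of MSN stood above all ICR mice. The log2 difference was 0.13 (standard error 0.0652, adjusted p = 0.448 from limma, two-sided exact permutation p = 0.108).

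Kdr, the main signaling receptor for VEGF, read 229, 261 and 316 against 218, 238 and 262, with MSN replicates 3, 5 and 6 above every ICR mouse and the difference at 0.11 (standard error 0.0704, adjusted p = 0.556 from limma). Tek, the angiopoietin receptor also called Tie2, was the lowest estimate, with 347, 369 and 407 in MSN mice and 335, 390 and 422 in ICR mice. Both its highest and its lowest value were from ICR mice, and its log2 difference was -0.045 (adjusted p = 0.785 from limma). Pecam1, which joins endothelial cells to each other, read 362, 412 and 483 against 361, 405 and 438, with 2 MSN mice above every ICR mouse and a log2 difference of 0.041 (adjusted p = 0.831 from limma).

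The pericyte genes lay close to 0 as well. Pdgfrb, the receptor through which pericytes are recruited, read 599, 637 and 673 at the lowest, median and highest MSN mouse and 589, 627 and 652 in ICR mice. Its log2 difference of 0.024 had a 95% interval of -0.059 to 0.11, the narrowest of the 10 markers, and 2 MSN mice exceeded all ICR mice. Rgs5, a regulator of G protein signaling that is abundant in pericytes, read 1524, 1634 and 1825 against 1451, 1570 and 1717, with a difference of 0.062 (adjusted p = 0.690 from limma). Vtn, which encodes vitronectin, read 1609, 1775 and 1921 against 1490, 1741 and 1980, with a difference of 0.025 (adjusted p = 0.905 from limma), and here the ICR range enclosed the MSN range.

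**Figure D1:**
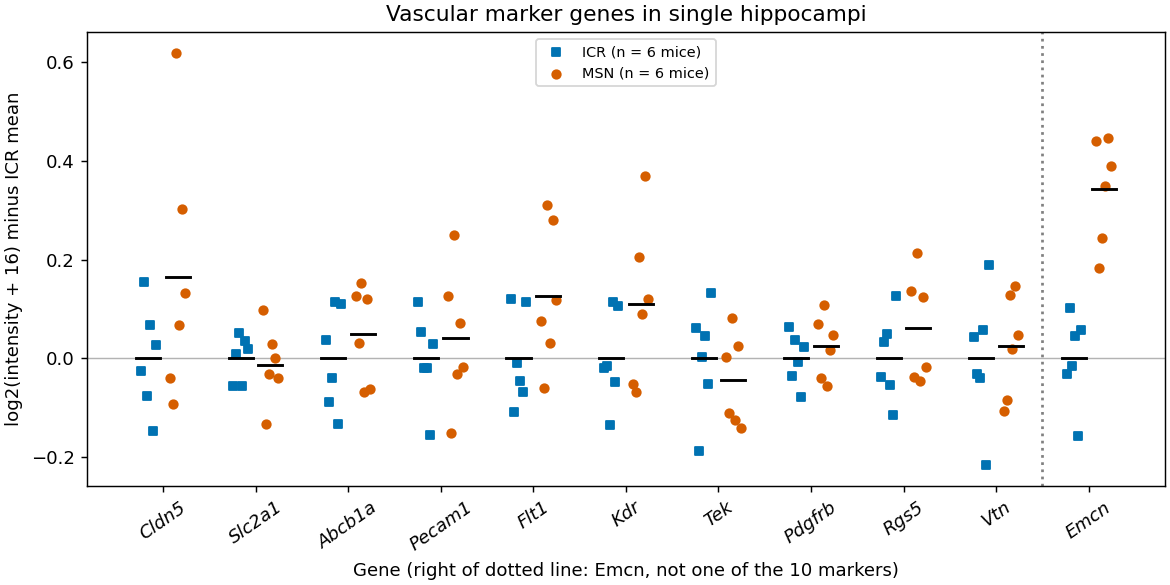
Levels of the 10 vascular markers and of Emcn in single hippocampi, as log2(intensity + 16) relative to the ICR average. Each point is 1 mouse, ICR in blue squares and MSN in orange circles, and black lines are means; the strains overlap in all 10 markers, and in Emcn all 6 MSN mice lie above the ICR mice.

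**Figure D2:**
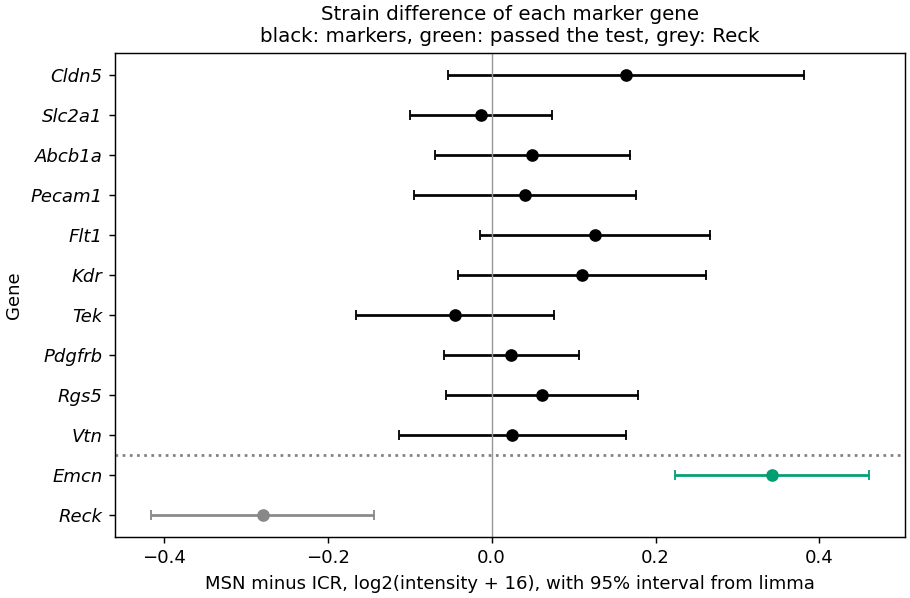
MSN minus ICR difference on the log2(intensity + 16) scale with the 95% interval from limma, 6 mice per strain, for the 10 markers (black), Emcn (green) and Reck (grey). The intervals of all 10 markers cross 0, that of Emcn runs from 0.22 to 0.46, and that of Reck, whose adjusted p was 0.0600, from -0.42 to -0.14.

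Emcn was the vascular gene that passed the test in the model with strain alone, and it was higher in MSN hippocampus. It encodes endomucin, a sialomucin on the surface of endothelial cells of capillaries and veins, and it was 1 of 20 further endothelial markers that were measured. Its intensity was 701 at the lowest, 800 at the median and 844 at the highest MSN mouse, and 551, 622 and 662 in ICR mice. All 6 MSN mice lay above all 6 ICR mice, and in 1.44% of all clusters the strains did not overlap. The mean was 786 ± 58.7 (SD, n = 6) against 617 ± 39.1 (SD, n = 6), a log2 difference of 0.34 (standard error 0.0550) or a 1.27-fold change, and limma gave an adjusted p = 0.0125. The two-sided exact permutation p was 0.00216, the smallest that 6 mice against 6 allow. The paper could not exclude that coding changes where probes bind affected the values of some genes. This was not tested here for Emcn or any other gene.

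Emcn remained called without each of the 12 mice in turn, over adjusted p from limma of 0.00925 to 0.0351. Of 9 choroid plexus markers 9 were higher in MSN mice (45.5% of all clusters) and none passed the test (0.777% of all clusters). Whether these 9 genes varied separately from each other was not tested. The summed intensity of the choroid plexus markers ran from 9487 to 23039 in MSN and from 7838 to 23054 in ICR mice with no value below 16. With the mean log2 level of these markers added to the model, a setting chosen after seeing the data, the Emcn difference was 0.31 (adjusted p = 0.0236 from limma).

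The endothelial list, Emcn included, spread from -0.17 to 0.34. Of 22 genes listed 20 were measured, 1 rose, 0 fell and 19 did not pass (0.777% of all clusters passed), and the median log2 difference was 0.032. At an unadjusted p under 0.05 there were 3 (12.7% of all clusters), namely Emcn and a pair that was named after their values were seen. Of the pair, Slco1a4, an organic anion transporter of the barrier, was at -0.17 (adjusted p = 0.281 from limma). Eng, the TGF-beta coreceptor endoglin, was at 0.15 (adjusted p = 0.382 from limma). Cdh5, the cadherin of endothelial junctions, was at -0.026, and Tie1, the sister receptor of Tek, at 0.054.

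No gene of the pericyte and smooth muscle list passed. By limma 0 of 13 were called (0.777% of all clusters) and 1 had an unadjusted p under 0.05 (12.7% of all clusters). The median log2 difference was -0.014. The lowest P-values were those of Des, the muscle-type intermediate filament desmin, at 0.095 (adjusted p = 0.365), and Tagln, the actin-binding transgelin of smooth muscle, at -0.12 (adjusted p = 0.402).

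Of 12 genes of VEGF, angiopoietin and PDGF-B signaling 0 were called by limma (0.777% of all clusters). Of these 12 genes 3 had an unadjusted p under 0.05 (12.7% of all clusters), namely Vegfa, Vegfc and Pdgfb, and the median was 0.044. Vegfa was at 0.19 (standard error 0.0784, adjusted p = 0.318 from limma). Vegfc, a VEGF best known for lymphatic growth, read 121, 134 and 142 at the lowest, median and highest MSN mouse against 139, 154 and 168 in ICR mice. Every MSN value lay below the ICR median, and the log2 difference was -0.19 (standard error 0.0520, adjusted p = 0.124 from limma, two-sided exact permutation p = 0.00866). Pdgfb, the ligand of Pdgfrb, read 552, 583 and 678 against 502, 542 and 571, so that 5 of 6 MSN mice exceeded every ICR mouse. Its log2 difference was 0.15 (adjusted p = 0.223 from limma, two-sided exact permutation p = 0.0130), while its receptor, as given above, was at 0.024.

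Among 13 genes of the Wnt pathway of the barrier 0 were called by limma (0.777% of all clusters). An unadjusted p under 0.05 was found for 3 (12.7% of all clusters), namely Reck, Adgra2 and Tspan12, and the median was -0.012. Tspan12 was at 0.094 (adjusted p = 0.388 from limma), opposite in sign to Reck and Adgra2. Reck, a membrane-anchored cofactor that endothelial cells need to respond to Wnt7a and Wnt7b, came close. It read 490, 580 and 630 at the lowest, median and highest MSN mouse and 644, 676 and 800 in ICR mice. The strains did not overlap, as in 1.44% of all clusters. The log2 difference was -0.28 (standard error 0.0633, adjusted p = 0.0600 from limma, two-sided exact permutation p = 0.00216). Reck passed in 5 of 10 other settings and without MSN replicate 1, with adjusted p from limma between 0.0301 and 0.0913 over the settings. Its partner Adgra2, the receptor Gpr124, was at -0.092 (adjusted p = 0.354 from limma), and the ligand genes Wnt7a and Wnt7b were at -0.11 (adjusted p = 0.487 from limma) and 0.020 (adjusted p = 0.927 from limma).

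Cells that touch the vessels were measured by their own markers. Astrocytes, whose endfeet wrap the capillaries, had 2 of 8 markers above 0 (45.5% of all clusters) and none that passed (0.777% of all clusters). An unadjusted p under 0.05 was reached by 4 of these markers (12.7% of all clusters). Their lowest P-values were those of Gfap, the astrocyte filament protein, at -0.30 (adjusted p = 0.101 from limma), and Aqp4, the water channel of the endfeet, at -0.23 (adjusted p = 0.148 from limma). The other 2 went both ways, with Aldh1l1, a folate enzyme used as a general astrocyte marker, at 0.19 and Slc1a2, the glutamate transporter GLT-1, at -0.11. In Slc1a2 the strains did not overlap (1.44% of all clusters), but only just, the highest MSN value being 8765 and the lowest ICR value 8766. The summed intensity of the astrocyte list was 29235 to 31992 in MSN and 31530 to 33486 in ICR mice, and its part in the values of the vascular genes was not tested. Of 4 blood cell markers measured 2 were above 0, with summed intensities of 762 to 991 and 775 to 896, and none passed.

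**Figure D3:**
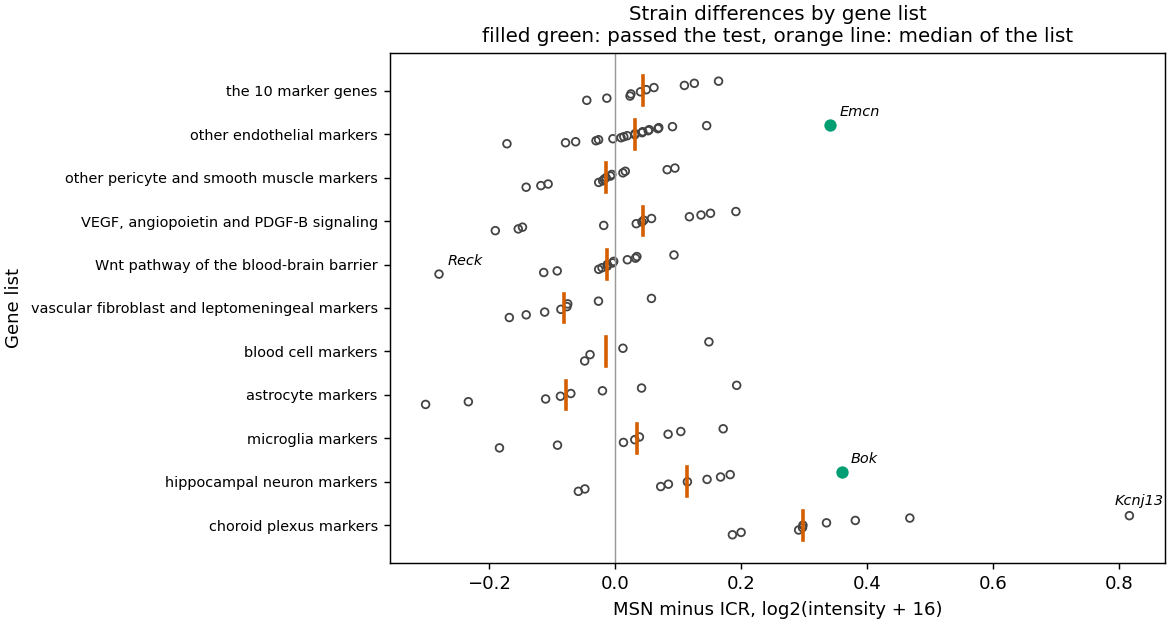
MSN minus ICR difference on the log2(intensity + 16) scale of each measured gene in 11 lists, 1 circle per gene (its brightest cluster), with the list median in orange and genes that passed limma at an adjusted p under 0.05 filled in green. The 10 marker genes lie between -0.045 and 0.16, and Emcn and the hippocampal neuron gene Bok are the genes that passed. The choroid plexus list has a median of 0.30 with 9 of 9 genes above 0 (45.5% of all clusters).

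Single mice differed in these markers, and the markers moved together. For this the strain mean of each gene was subtracted and the deviations of the 12 mice were compared between genes. In MSN replicate 3 all 9 markers other than Slc2a1 lay above their strain mean, by 0.084 to 0.45 on the log2 scale, and in ICR replicate 6 all 9 did, by 0.023 to 0.19. In MSN replicates 2 and 4 and in ICR replicate 5 none of the 9 did, and their median deviations were -0.11, -0.081 and -0.12. The other 7 mice had between 3 and 8 of the 9 genes above the mean.

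Of the 45 pairs among all 10 genes 41 had an r above 0, with a median of 0.584. Slc2a1 was set aside after its values had been seen, so what follows describes 9 genes that were kept for moving together. Of 36 pairs among these 9 genes all 36 had a Pearson r above 0 over the 12 mice, with a median of 0.611 (Spearman's median 0.591), and 27 exceeded 0.5. For comparison, the median r of each of the 9 genes with all 19937 other genes lay between -0.083 and 0.024. These are descriptions over 12 mice, and genes of 1 mouse share its array, its RNA and its scaling. The median r was 0.607 after quantile normalization and 0.699 after bringing the arrays to 1 common median. It was 0.707 within MSN, with 36 of 36 pairs above 0, and 0.518 within ICR, with 33 of 36. With the 2 mice farthest from the median left out of each pair it was 0.446 and 34 of 36 stayed above 0, and without MSN replicate 3 it was 0.518 and all 36 did.

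Tek and Abcb1a, a receptor and an efflux pump, were the most alike at r = 0.859 (Spearman's rho 0.762). Among 19937 genes Tek stood at rank 8 in likeness to Abcb1a, and Abcb1a at rank 12 in likeness to Tek. Pecam1 and the pericyte gene Pdgfrb came next at 0.812, and Pecam1 and Rgs5 reached 0.778, each an endothelial marker with a pericyte marker. Kdr and Vtn had r = 0.768. Flt1 was the most central gene, since all 8 others were among the 5% of genes most like it, while Kdr and Pdgfrb were the least alike at 0.142.

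Slc2a1 stood apart. Its r with the other 9 markers ran from -0.19 with Vtn to 0.359 with Rgs5, with a median of 0.065 and 5 of 9 above 0, and its closest marker, Rgs5, ranked 2890 of 19937. GLUT1 is known from glial cells as well as from endothelium. Slc2a1 also varied little, with a standard deviation within strains of 0.064 on the log2 scale, more than that of 22.2% of genes. Pdgfrb varied less still and had a median r of 0.628 with the 8 markers other than itself and Slc2a1. Whether glial RNA or low spread bears on the r of Slc2a1 was not tested.

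Cldn5 varied most, at 0.20, more than 96.2% of genes. Its standard deviation was 0.26 in MSN and 0.11 in ICR mice, and 7 of the 10 markers had a larger spread in MSN mice, the inbred strain. Over all clusters the median standard deviation was 0.087 in MSN and 0.085 in ICR mice. The difference in spread was not tested. Pdgfrb varied least of all, at 0.058, more than 16.8% of genes.

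**Figure D4:**
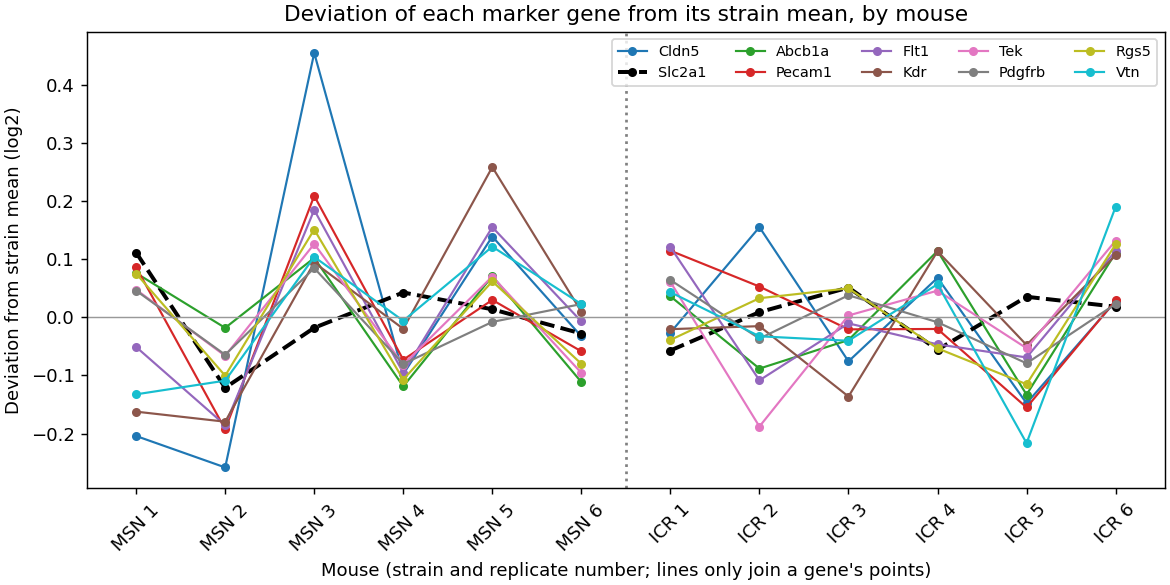
Deviation of each marker from its strain mean on the log2 scale, in 6 MSN and 6 ICR mice; each line joins the points of 1 gene, and Slc2a1 is the dashed black line. The 9 other markers lie above 0 in MSN 3 and ICR 6 and below 0 in MSN 2, MSN 4 and ICR 5.

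**Figure D5:**
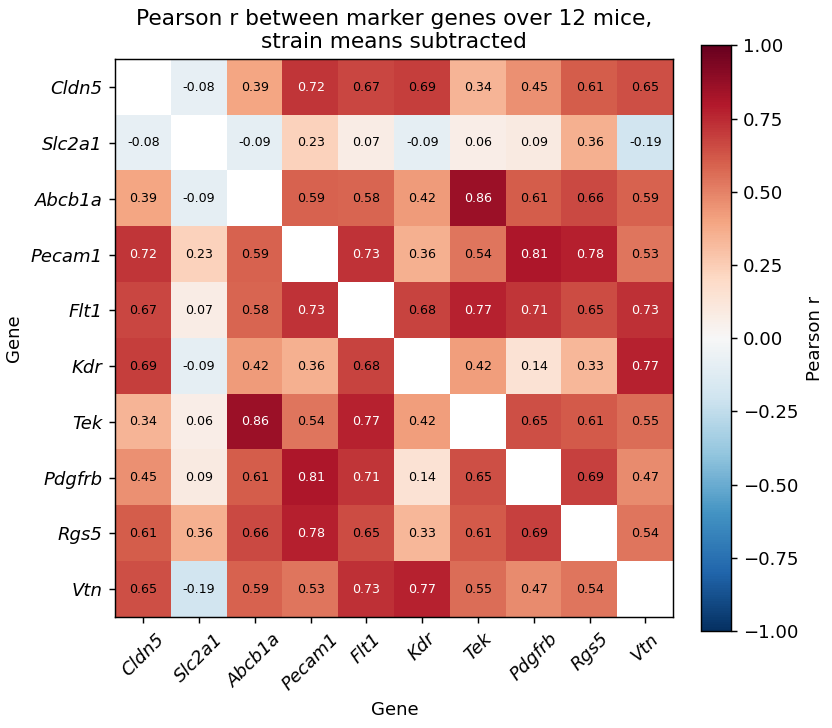
Pearson r between each pair of the 10 markers over 12 mice after subtraction of strain means, from blue (-1) to red (1). The row of Slc2a1 is pale, with values from -0.19 to 0.359, and the other pairs lie between 0.142 and 0.859.

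The mean of the 9 standardized markers had a median r of 0.372 with the 20 other endothelial markers, and 8 of 20 exceeded 0.5, as did 5.48% of all other genes. Shares of 3 in 8 were found for astrocyte markers and for vascular fibroblast and leptomeningeal markers, and of 2 in 8 for microglia markers. Esam, an adhesion molecule of endothelial junctions, reached 0.857, and Ocln, the tight junction protein occludin, was lowest at -0.20. The 12 genes of VEGF, angiopoietin and PDGF-B signaling had a median of 0.277 with 8 above 0, and 1 exceeded 0.5, Ptprb, the phosphatase that restrains Tek, at 0.755. The 13 other pericyte and smooth muscle genes had a median of 0.161, with 8 above 0 and 2 above 0.5. Anpep, an aminopeptidase on pericytes, was highest at 0.825, and Ndufa4l2 was lowest at -0.404. Astrocyte and microglia markers had medians of 0.403 and 0.349, while hippocampal neuron markers had -0.029 and choroid plexus markers -0.43, with 9 of 9 below 0. Emcn had an r of 0.334, and Reck had one of -0.109.

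Among brighter genes, with the 10 markers left out, those most like the endothelial markers were not vascular ones. Vascular genes below the median intensity, such as Anpep and Tie1, could not enter this ranking. With the mean of the 7 standardized endothelial markers, Slc2a1 included, the highest r among 9875 genes of more than median intensity belonged to Rtn2, a reticulon of the endoplasmic reticulum, at 0.947 (rho 0.930). It was followed by the mitochondrial phosphatase gene Pgam5 at 0.929, the alpha-tubulin gene Tuba4a at 0.906, Dctpp1 at 0.906, an enzyme that clears deoxycytidine triphosphate, and the proteasome gene Psmb1 at 0.874. For the 3 pericyte markers the order was Arfgap3 at 0.919, St3gal6 at 0.889, Ddhd1 at 0.878, Esam at 0.860 and Rtn2 at 0.857. With the 2 mice farthest from the median left out these 10 values lay between 0.689 and 0.928, and none of these 9 genes passed the test between the strains, the lowest adjusted p from limma being 0.0994 for Ddhd1.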

How the data were processed

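Hippocampal RNA of 6 MSN and 6 ICR mice was measured, each mouse on 1 array. The authors summarized the probes into 1 linear intensity per transcript cluster and array with PLIER and GC-bin background correction, and Affymetrix Power Tools 1.12.0 is named in the submitters' processing notes and the paper. The deposited intensity values were used without further normalization, as log2 after 16 had been added. Strain was the sole term of the model in limma 3.58.1 under R 4.3.3 (prior degrees of freedom 4) run over the 23410 of 35556 clusters with a gene in the platform annotation, with Benjamini-Hochberg adjustment, and no filter on dim clusters. Of a gene with several clusters the brightest was taken. The exact permutation test compared the mean of each single gene over all splits into 6 and 6. Simulated data with known changes in 100, 50 and 50 clusters were used to test the model, which made 10 false calls.

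The 10 members and all lists were chosen with earlier results of these data known. The genes named are the 10 members and Abcb1b, and of each other list the called genes or else the 2 with the lowest P-values. The 5 genes most like the endothelial and the pericyte markers are named as well. Cdh5, Tie1, Wnt7a, Wnt7b, Slco1a4, Eng and Aldh1l1 fall outside this rule and were chosen after their values were seen. The same holds for Slc1a2, Ocln, Ptprb, Anpep, Ndufa4l2, Vegfa and Tspan12. Replicate numbers do not pair the mice. Whether the mice were littermates is not given in the sources used here. The number of arrays limits the precision. Alternatives were intensities without log2, 1 or 64 in place of 16, arrays quantile normalized or brought to 1 common median, trended and robust eBayes, array weights, a limit to clusters of more than median brightness, all clusters or 1 for each gene, a block for replicate number, the choroid plexus level as a covariate (chosen after seeing the data), and leaving out each mouse.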

Additional observations from a re-analysis of the deposited data

How the results depend on the processing

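The count of 0 called among the 10 markers was the same in 10 other settings of scale, normalization, filter and weights, with the replicate number as a block, with the choroid plexus covariate and without each mouse in turn; Kdr and Tek were not tested in the setting limited to clusters above the median mean, which kept 8 of the 10 markers and 27 of 58 genes of the other lists. Of 58 genes in the 4 other vascular lists 1 was called, and 2 were called with a pseudocount of 64, with the arrays scaled to the same median, with trended and robust eBayes, with clusters above the median mean and with array weights, the second being Reck. Without each mouse in turn the count was 1 to 2. Same-numbered mice did not deviate together (correlations of their deviations from -0.13 to 0.13, 1 of 6 over 0.1, and 1 of 6 MSN mice most like its own number), so the numbers do not pair the mice; with the replicate number as a block 0 of the 58 genes were called, Emcn having an adjusted p of 0.0769 from limma, and 42 clusters in all. Over all clusters 182 were called, 71 higher and 111 lower, and the balance turned to 131 and 109 with quantile normalization and to 115 and 89 after scaling to the same median; 279 were called with a pseudocount of 64, 315 with array weights, and 91 to 210 without 1 mouse. The cause of these shifts was not tested.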

Other observations

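Other cells near the vessels gave these values, beside 0.777% called, 12.7% with an unadjusted p under 0.05 and 45.5% above 0 over all clusters. Of 8 markers of vascular fibroblasts and the leptomeninges, the thin membrane over the brain, 1 was above 0, 0 were called by limma, 0 had an unadjusted p under 0.05, and the median log2 difference was -0.081. The collagen genes Col1a2 and Col1a1 were at -0.11 (adjusted p = 0.406 from limma) and -0.075 (adjusted p = 0.513 from limma). Of 8 microglia markers 6 were above 0 and 0 were called by limma. An unadjusted p under 0.05 was found for 2, C1qb, a chain of complement C1q, at 0.17 (adjusted p = 0.317 from limma), and Trem2, a lipid-sensing receptor, at -0.18 (adjusted p = 0.349 from limma). Alas2, the heme synthesis enzyme of red cells, was at 0.15 (adjusted p = 0.376 from limma) and Slc4a1, the anion exchanger of their membrane, at -0.040 (adjusted p = 0.781 from limma). Of 9 hippocampal neuron markers 1 rose, Bok, a Bcl-2 family gene, with a log2 difference of 0.36 ± 0.0704 (SE; adjusted p = 0.0305 from limma), and 8 did not pass. The choroid plexus genes Kcnj13, a potassium channel, and Ttr, the thyroid hormone carrier, had the lowest P-values of their list, with Kcnj13 reading 997 to 4476 in MSN and 724 to 4098 in ICR mice.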
